A study of Mus musculus with 12 samples.

Results

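The transcripts described here are 10 genes of the mammalian circadian clock, taken by gene symbol: Clock, Arntl, Per1, Per2, Per3, Cry1, Cry2, Nr1d1, Nr1d2 and Dbp. They are 10 of the 17986 genes listed in at least 1 of the 4 deposited count tables. RNA was counted in hippocampus of C57BL6/J mice in 12 libraries from a study of learning and memory: whole homogenates on day 6, with 3 libraries in arm C and 3 in arm L, and a synapse fraction on days 1, 6 and 20, with 1 library per arm on each day. In the file headers C stands for control, and L for training or learned; the synapse columns of days 1 and 20 carry the letter C or T. The labels give neither the task, the hour of sampling, the sex and age of the mice nor the way the synapse fraction was made. Whether the libraries of a group came from different mice is not said, so the spread behind each p-value is that of these samples and could be technical.

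The clock is a transcriptional feedback loop. The proteins CLOCK and BMAL1, the latter made from Arntl, bind E-box sequences together and switch on the Per and Cry genes, whose products return to block them. The same pair drives Nr1d1 and Nr1d2, which encode the REV-ERB repressors of Arntl, and Dbp, an output transcription factor that binds D-box sequences. Transcripts of this loop cycle over the day in the hippocampus as in most tissues, with Arntl peaking at roughly the opposite time to Dbp, the Per genes and the REV-ERB genes. Per1 is also an early response gene, induced by neuronal activity and by glucocorticoid hormones.

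The binding sequences of this loop were looked for in RefSeq promoters, from 250 bases before to 50 bases after the start of a gene, on build GRCm38.p6. A promoter was found for 9 of the 10 genes, and 4 stretches are shown because they hold the E-box CACGTG or the D-box TTATGTAA in the promoter of a member. The D-box match of Per1, of the form TTATGCAA, is not shown. The capitals mark the E-box CACGTG or the D-box TTATGTAA, searched on both strands, and each stretch is written on the strand of its gene.
Per1 E-box, chr11:69098763-69098808, plus strand: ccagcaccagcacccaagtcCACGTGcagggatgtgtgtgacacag
Cry1 E-box, chr10:85185089-85185134, minus strand: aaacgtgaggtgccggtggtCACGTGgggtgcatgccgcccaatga
Per3 D-box, chr4:151044843-151044890, minus strand: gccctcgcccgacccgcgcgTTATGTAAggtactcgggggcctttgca
Per3 D-box, chr4:151044796-151044843, minus strand: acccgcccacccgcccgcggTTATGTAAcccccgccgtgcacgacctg
The E-box was present in the promoters of Per1 and Cry1 and in those of 8.09% of all 27025 genes with a promoter. The D-box, searched as TTATGTAA or TTATGCAA, was present in Per1 and, at 2 positions, in Per3, against 1.98% of all these genes. The E-box variant CACGTT was in Cry1, Cry2 and Nr1d1 and in 5.44% of all these genes. The cyclic AMP response element TGACGTCA was in none of the 9 and in 2.03% of all these genes. The ROR response element, the sequence bound by the REV-ERB repressors, was found in Arntl, within its annotated exon, and in 0.459% of all these genes. A match of letters is a description and does not show that a protein binds there.

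In GENCODE M21 (GRCm38, the build named mm10) the activators Clock and Arntl lie at chr5:76209868-76304792 on the minus strand and chr7:113207465-113314126 on the plus strand. The Per genes lie at chr11:69095217-69109960 (Per1, plus), chr1:91415982-91459324 (Per2, minus) and chr4:151003652-151044665 (Per3, minus), and the RefSeq start of Per1 used above lies inside the annotated gene. Cry1 lies at chr10:85131700-85185064 and Cry2 at chr2:92403646-92434043, both on the minus strand. Nr1d1 lies at chr11:98767932-98775333 and Nr1d2 at chr14:18204054-18239127, both on the minus strand, and Dbp at chr7:45705088-45710203 on the plus strand.

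Library totals ran from 9100192 to 15950350 counts, so that 3 counts, the limit a count of 0 allows, correspond to 0.188 to 0.33 CPM (counts scaled to a common library total). The synapse libraries of day 6 stood apart. Their TMM factors, edgeR's correction of the library total for composition, were 0.66 (C) and 0.718 (L), against 0.971 to 1.18 in the other 10 libraries. Even numbers made up 65.5% and 69.5% of their gene counts from 4 to 9, against 53.1% to 63.0% elsewhere, and their columns carry the word Input, which the synapse columns of days 1 and 20 lack. The homogenate columns carry the same word, with TMM factors of 1.10 to 1.18. Hippocampal neuron markers were abundant in every library, with summed levels of 3796 to 6277 CPM over 6 genes. Homogenate library 1 of arm L also held liver transcripts, with 2285 CPM over 6 marker genes against at most 0.376 CPM in the other homogenates, and the synapse libraries of day 6 held 34.3 to 168 CPM. The synapse pairs and the homogenates stand in different tables, and an effect of the table cannot be told apart from one of the fraction.

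In whole hippocampus 9 of the 10 genes were well measured, and Per2 was not. Nr1d2 and Clock gave the most reads, with means of 220.3 ± 25.4 and 224.9 ± 4.43 CPM (SD, n = 6 homogenates). Per kilobase of annotated exons, a scale on which genes can be compared, Nr1d2 led at 40.7 CPM per kb and stood apart from every other gene. Nr1d1 (18.9), Clock (16.4), Dbp (14.1), Per1 (13.5), Per3 (11.8) and Cry2 (9.99 CPM per kb) followed in an order in which each gene's range overlapped that of the next. Cry1 (5.10 CPM per kb) and Arntl (2.66 CPM per kb) came last, each with a range apart from its neighbours.

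Per2, a core Per gene, was counted 3 times in homogenate library 2 of arm L (0.253 CPM) and 0 times in the other 5 homogenates. It is not listed in the 3 synapse tables, and it failed the filter on low counts, so it has no test in any comparison. Whether the gene was not expressed or its reads were not counted cannot be told apart here. All the statements below are about the other 9 genes. Reads of overlapping antisense genes may be included, since the strand setting of the counting is not given in the sources used here. This touches Dbp most, which shares 539 of its 2993 exon bases with Sphk2 on the other strand, and Nr1d1 (263 of 3077, Thra), Cry2 (295 of 6320) and Arntl (33 of 7523) less.

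**Figure D1:**
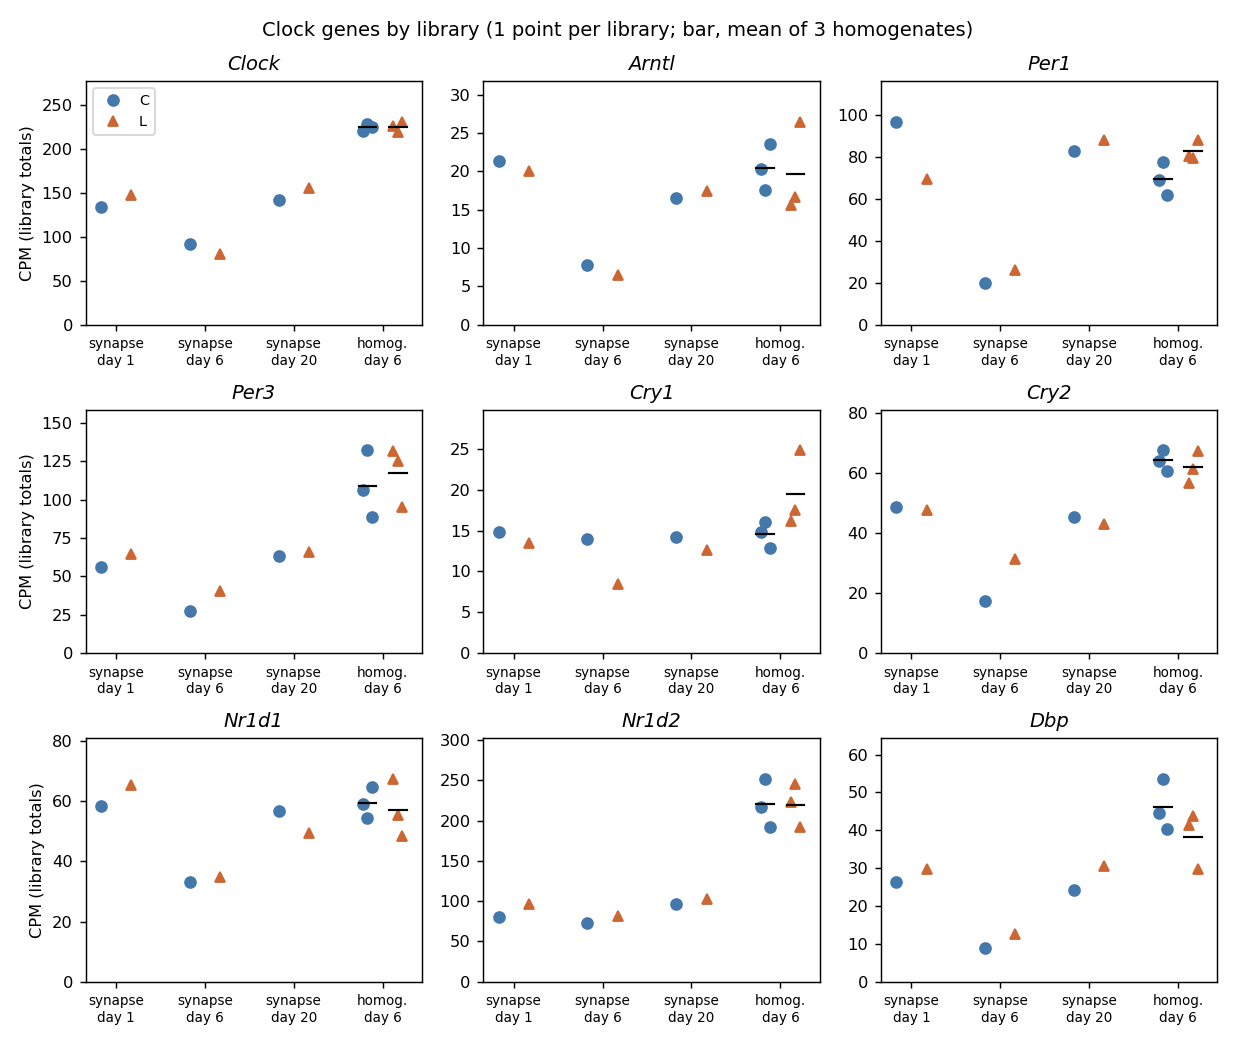
Level of 9 clock genes in each library, in CPM scaled to library totals, by fraction and day. Circles are arm C and triangles arm L, with 1 point per library and a bar at the mean of the 3 homogenates of an arm. The synapse libraries of day 6 are the lowest for Clock, Arntl, Per1, Per3, Cry2, Nr1d1 and Dbp. The share of all genes lowest in these libraries was not counted, and this scale is not corrected for composition. With TMM scaling, only Per1, Arntl and Dbp were lower on day 6 than on days 1 and 20 at an edgeR adjusted p under 0.05.

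The comparison of L with C in the day 6 homogenates asks whether the clock transcripts differed between arms in whole tissue. Per1 and Cry1 were the members whose L libraries all lay above all C libraries. Per1 measured 68.9, 77.7 and 62.0 CPM in C and 80.6, 79.6 and 88.3 CPM in L. The groups did not overlap, and the log2 difference was 0.26 ± 0.109 (SE; edgeR quasi-likelihood test, unadjusted p = 0.0389, adjusted p = 0.542). Cry1, the stronger repressor of the Cry pair, measured 14.8, 16.1 and 12.9 CPM in C and 16.1, 17.5 and 24.8 CPM in L. Its groups nearly touched, with the L mean raised by library 3, and the log2 difference was 0.42 ± 0.188 (edgeR adjusted p = 0.559). That library also had the highest sums of choroid plexus markers, at 3270 CPM against 1321 to 2146 CPM in the other 5 homogenates, and of oligodendrocyte markers, at 3213 CPM against 1961 to 2440 CPM. Between arms all 5 choroid plexus and all 5 oligodendrocyte markers lay above 0, with medians of 0.33 and 0.14. All 4 microglial markers tested lay below 0, with a median of -0.28. Pituitary markers summed to 45.9, 2.84 and 78.9 CPM in C libraries 1, 2 and 3, and to 1.08, 1.01 and 1.10 CPM in L. None of these markers was called, and their part in the values of Cry1 and Per1 was not tested. Without L library 3 the log2 difference of Cry1 was 0.22, and without L library 1, the one with liver transcripts, Per1 differed by 0.28 and Cry1 by 0.54, neither called. Such non-overlap with L higher was found for 7.69% of the 13647 genes tested, against 2 of the 9 members.

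Dbp measured 44.7, 53.6 and 40.2 CPM in C and 41.3, 43.9 and 29.7 CPM in L. The arms overlapped, and its log2 difference was -0.26 ± 0.171 (edgeR adjusted p = 0.672). Clock, the partner of BMAL1, was the steadiest member, at 220.5 to 228.6 CPM in C and 219 to 231 CPM in L, with a log2 difference of 0.012 ± 0.0704. Arntl, Per3, Cry2, Nr1d1 and Nr1d2 differed by -0.064 to 0.12 on the log2 scale, within the spread between libraries. None of the 9 members passed an adjusted p under 0.05, and 0% of the 13647 genes did. At an unadjusted p under 0.05 edgeR counted 1217 genes, among them Per1 and Cry1. DESeq2 called 13 genes and limma-voom 0, no clock gene among them.

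Among the neighbours of the loop, 0 of 12 other clock transcription factors, 0 of 12 kinases, ligases and partners of PER and CRY, and 0 of 10 rhythmic output genes passed the test between arms in the homogenates. Per1 can be read beside 2 other lists. The glucocorticoid-induced genes lay above 0 in 11 of 12 cases, with a median of 0.29, and the activity-induced genes in 9 of 12, with a median of 0.25, against a median of 0.0044 over all genes; none of them passed. Their part in the values of Per1 was not tested.

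Within the homogenates, some members varied with the library number in the same way in both arms. The libraries numbered 3 were the lowest of their arm for Dbp, Nr1d2 and Per3 and the highest for Arntl, in C and in L alike. Nr1d2 measured 217, 252 and 192 CPM in C libraries 1, 2 and 3, and 223, 245 and 192 CPM in L. Per3, a Per gene with little role in keeping the rhythm, followed with 106, 132 and 88.6 CPM in C and 132, 126 and 95.2 CPM in L. Arntl went the other way, with 20.3, 17.6 and 23.6 CPM in C and 15.7, 16.7 and 26.5 CPM in L. The remaining members did not share this pattern. In libraries 3, Per1 was the lowest of C (62.0 CPM) and the highest of L (88.3 CPM), and so were Cry1 and Cry2. Nr1d1 was the highest of C (64.7 CPM) and the lowest of L (48.6 CPM), and Clock was an extreme only in L. The log2 ratio of Dbp to Arntl, 2 transcripts of opposite phase, was lowest in the libraries numbered 3, at 0.77 in C and 0.16 in L, against 1.14 to 1.61 in the other 4.

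This pattern is to be read against a high background: libraries numbered 3 were the extreme of both arms for 33.6% of all genes tested, against 4 of the 9 members. Libraries numbered 3 were highest in both arms for 21.5% of genes and lowest for 12.1%. Libraries numbered 2 were the highest of both arms for Nr1d2 and Dbp and for 15.6% of genes. In the column headers the C and L libraries of the same number begin with the same numeric prefix. What the prefix stands for is not said, and no test was made of this pattern.

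**Figure D2:**
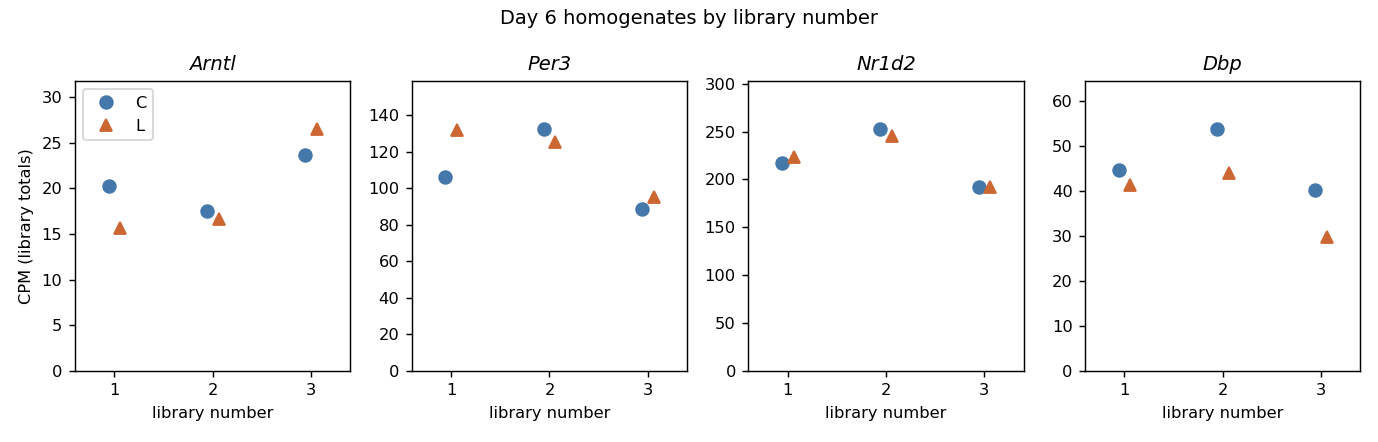
Level of Arntl, Per3, Nr1d2 and Dbp in the day 6 homogenates by library number, in CPM, with circles for arm C and triangles for arm L (1 point per library). The libraries numbered 3 are the highest of their arm for Arntl (23.6 and 26.5 CPM) and the lowest for the other genes shown.

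Between fractions, 7 of the 9 members were lower in the synapse fraction than in the homogenates on day 6. This was the most widespread difference among the clock genes. It was also a common one, since 38.5% of the 14137 genes tested were called lower and 67.3% were called in either direction. The median log2 difference over the members was -0.73, against -0.23 over all genes. The fit had 1 synapse library per arm, and these were assumed to vary like the homogenates.

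Dbp showed the largest fall, with 8.91 (C) and 12.6 CPM (L) in the synapse libraries of day 6 against 29.7 to 53.6 CPM over the 6 homogenates. In CPM scaled to library totals the fractions did not overlap for Dbp. That scale is not corrected for composition, and the TMM factors of these synapse libraries were 0.66 and 0.718. The share of all genes without overlap was not counted. The log2 difference of Dbp was -1.23 ± 0.198 (edgeR adjusted p = 0.000434). Per3 and Per1 fell by 0.99 ± 0.195 and 0.96 ± 0.119 on the log2 scale (edgeR adjusted p = 0.00186 and 7.82e-05). Nr1d2, which represses Arntl, fell by 0.75 ± 0.141, and Arntl itself by 0.73 ± 0.226 (edgeR adjusted p = 0.00112 and 0.0171). Cry2 fell by 0.67 ± 0.106 and Clock by 0.62 ± 0.0741 (edgeR adjusted p = 0.000377 and 6.23e-05). Both Per genes with counts, both members of the activating pair and Dbp were thus each called lower, as were 38.5% of all genes tested. Whether they moved jointly was not tested.

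Cry1 and Nr1d1 did not pass. Nr1d1, the gene of REV-ERB alpha, had a log2 difference of -0.017 ± 0.129 (edgeR adjusted p = 0.917). Cry1 differed by 0.14 ± 0.192 (edgeR adjusted p = 0.541), and scaling by library totals turned this to -0.63 (edgeR adjusted p = 0.0162). Under library totals all 9 members were called lower, and the split of all genes moved from 4059 higher and 5449 lower to 2445 and 8701, with the all-gene median at -0.98. Without the C synapse library Cry2 lost its call (log2 difference -0.27, edgeR adjusted p = 0.136), and without the L synapse library Arntl lost its call (-0.57, adjusted p = 0.132) while Cry1 was called higher (0.77, adjusted p = 0.0247).

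The 4 synapse libraries of days 1 and 20 gave another picture of the same fraction. All the homogenates are of day 6, so day, table and fraction cannot be told apart in this comparison. Here 5 members were lower than in the homogenates and 1 was higher, against 29% and 27.2% of the 14111 genes tested and 56.2% in either direction. Nr1d2 had the largest difference, with 80.9, 97.1, 96.8 and 103 CPM in these synapse libraries against 192 to 252 CPM in the homogenates. No library of one fraction reached the other, and the log2 difference was -1.04 ± 0.0968 (edgeR adjusted p = 5.47e-07), lower than that of all but 3.25% of genes. Per3 fell by 0.67 ± 0.125 and Clock by 0.44 ± 0.0576 (edgeR adjusted p = 0.000559 and 1.31e-05), both with ranges apart. Cry2 fell by 0.25 ± 0.0754 (edgeR adjusted p = 0.0103), and Dbp by 0.41 ± 0.143 (adjusted p = 0.0244). The range of Cry2 was also apart and that of Dbp was not. How many of all genes had ranges apart was not counted.

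Per1 was the member called higher in these synapse libraries than in the day 6 homogenates. It measured 96.9 (C) and 69.6 CPM (L) on day 1 and 83.0 and 88.0 CPM on day 20, against 62.0 to 88.3 CPM in the homogenates. The ranges overlapped, and the log2 difference was 0.35 ± 0.113 (edgeR adjusted p = 0.017). The call was lost under library totals (0.16, edgeR adjusted p = 0.222) and without the C library of day 1 (0.16, adjusted p = 0.203), the C library of day 20 (0.36, adjusted p = 0.0514) or the L library of day 20 (0.34, adjusted p = 0.0719). The call of Dbp was lost without the C library of day 1 (edgeR adjusted p = 0.142), the C library of day 20 (0.181) or homogenate library 2 of arm L (0.0557). Arntl and Nr1d1 differed by 0.10 ± 0.143 and 0.17 ± 0.0922 and Cry1 by -0.086 ± 0.157, none past the threshold, and library totals turned Arntl (-0.094) and Nr1d1 (-0.025) below 0. Under library totals the split of all genes moved from 3839 higher and 4088 lower to 2754 and 5810, with the all-gene median at -0.25 instead of -0.052.

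Markers of glial and other cells moved with the fraction. The 5 astrocyte markers summed to 2758 to 3022 CPM in the synapse libraries against 1417 to 1592 CPM in the homogenates, and all 5 were called higher on day 6 and on days 1 and 20. The microglial sum was 413 to 512 CPM on day 6 and 220.3 to 253 CPM on days 1 and 20, against 91.5 to 126 CPM in the homogenates, with Csf1r near 0 or unlisted throughout. The oligodendrocyte sum reached 9668 to 11375 CPM on days 1 and 20, against 2879 to 3392 CPM in the synapse libraries of day 6 and 1961 to 3213 CPM in the homogenates. The choroid plexus sum was 3020 to 5634 CPM in the synapse libraries against 1321 to 3270 CPM in the homogenates, and all 5 markers were called higher on day 6 and on days 1 and 20. Endothelial markers summed to 41.1 to 53.5 CPM on day 6, against 193 to 320.5 CPM on days 1 and 20 and 169 to 210.2 CPM in the homogenates. In bulk tissue fewer cells of a type and less RNA per cell cannot be told apart, and the part of these markers in the clock gene differences was not tested.

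The counts of other genes of the loop are to be read against the shares of all genes, 38.5% lower and 28.7% higher on day 6, and 29% lower and 27.2% higher on days 1 and 20. Of the kinases, ligases and partners of PER and CRY, 9 of 12 were called lower in the synapse fraction on day 6 and 7 of 12 on days 1 and 20, and none was called higher. Sfpq, a nuclear RNA-binding partner of PER proteins, fell by 1.74 on the log2 scale on day 6 and by 0.87 on days 1 and 20 (edgeR adjusted p = 4.49e-07 and 1.23e-07). Of the other clock transcription factors, 6 of 12 were called lower and 2 higher on day 6, and 4 lower and 2 higher on days 1 and 20. Rorb, a nuclear receptor of the ROR family, was higher by 1.48 and 0.66 (edgeR adjusted p = 5.1e-07 and 2.3e-06). Of the rhythmic output genes, 4 of 10 were called higher and 3 lower on day 6, and 5 higher and 2 lower on days 1 and 20. Por, which encodes the electron donor of cytochrome P450 enzymes, was higher by 1.74 and 0.98 (edgeR adjusted p = 2e-07 and 1.28e-07). The comparisons on day 6 and on days 1 and 20 share the homogenate libraries, which are all of day 6. Without homogenate library 1 of arm L, which held liver transcripts, the 7 calls of day 6 and the 6 of days 1 and 20 were kept, and Nr1d1 was called higher on days 1 and 20 (0.23, edgeR adjusted p = 0.0308).

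**Figure D3:**
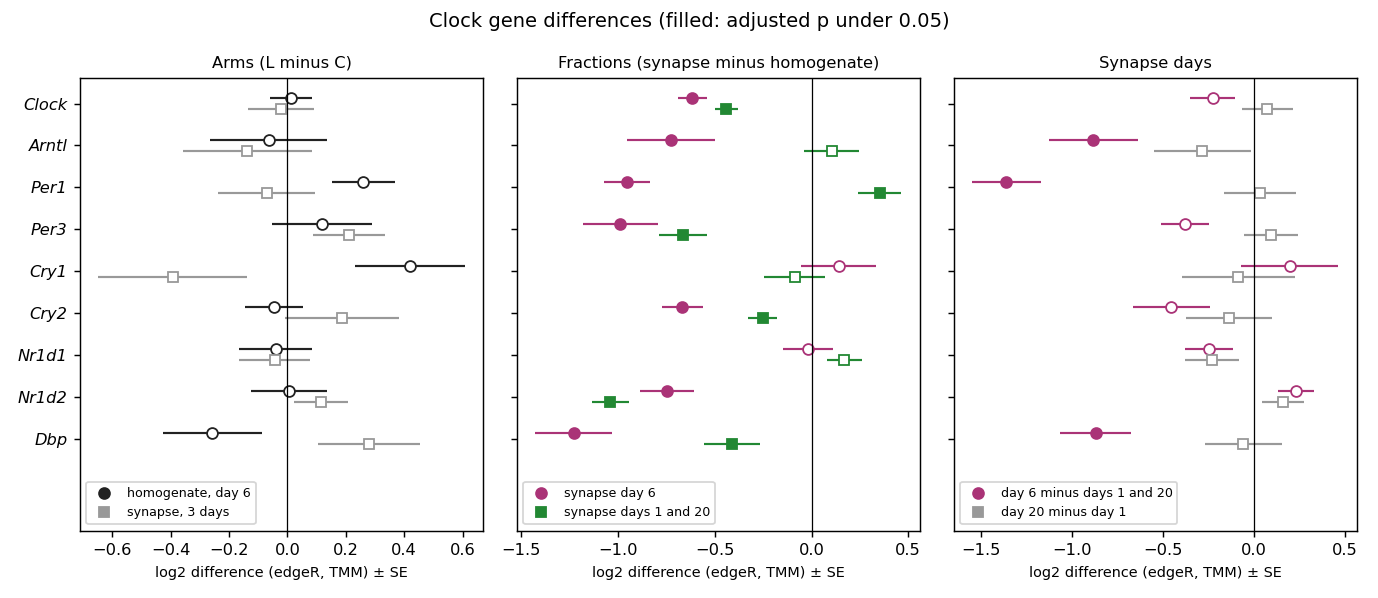
Log2 difference of each clock gene from edgeR with TMM scaling, with bars of 1 SE, between arms, between fractions and between days of the synapse fraction; filled symbols have an adjusted p under 0.05. No member is filled between arms, 7 are filled on day 6 and 6 on days 1 and 20 between fractions, and Per1, Arntl and Dbp are filled between day 6 and days 1 and 20.

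Within the synapse fraction, Per1, Arntl and Dbp were lower on day 6 than on days 1 and 20. In this fit, also used for day 20 against day 1, the C and L libraries of a day stood in as its samples. Arm was a term, and no arm had replicates on any of these days. The 3 members called are to be read against 15.2% of the 13363 genes called lower, 18.2% called higher and 33.5% called in either direction. Per1 measured 20.2 (C) and 26.2 CPM (L) on day 6, against 69.6 to 96.9 CPM on days 1 and 20, a log2 difference of -1.36 ± 0.189 (edgeR adjusted p = 0.00225). Arntl measured 7.73 and 6.51 CPM on day 6 and 16.6 to 21.3 CPM on the other days, a log2 difference of -0.88 ± 0.245 (edgeR adjusted p = 0.0338). Dbp measured 8.91 and 12.6 CPM on day 6 and 24.2 to 30.5 CPM on the other days, a log2 difference of -0.87 ± 0.193 (edgeR adjusted p = 0.0146). In CPM scaled to library totals the days did not overlap in any of the 3. Per3, Cry2, Clock and Nr1d1 differed by -0.38, -0.45, -0.23 and -0.25 and were not called (edgeR adjusted p = 0.0728, 0.152, 0.206 and 0.196). The share of all genes without overlap was not counted.

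Per1 kept its call whichever single library was left out. That of Arntl was lost under DESeq2 (adjusted p = 0.0593) and without either library of day 1 or of day 20 (edgeR adjusted p = 0.102 to 0.188), and that of Dbp without the C library of day 1 (0.0869) or the L library of day 20 (0.0724). Their log2 differences stayed below 0 whichever library was left out, at -1.07 to -0.73 for Arntl and -0.95 to -0.80 for Dbp. Under library totals 7 members were called lower, with Per3, Cry2, Clock and Nr1d1 added, the all-gene median moved from -0.081 to -0.59, and the split of all genes from 2438 higher and 2032 lower to 1455 and 5108. Nr1d2 differed by 0.23 ± 0.098 (edgeR adjusted p = 0.121) and by -0.28 (adjusted p = 0.0502) under library totals. Cry1 differed by 0.20 ± 0.268 and by -0.32 under library totals, not called either way. Among the synapse libraries, day 6 and the word Input in the column names go together, and their parts cannot be told apart.

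No member was called between day 20 and day 1, with log2 differences from -0.28 (Arntl) to 0.16 (Nr1d2). No gene of 13363 was called (0%), 14 had an unadjusted p under 0.05 in edgeR, and DESeq2 called 0, with 10 genes at an unadjusted p under 0.05. Of the activity-induced genes, 11 of 11 tested lay below 0 on day 6 against days 1 and 20, with a median of -1.57, and 4 were called lower. Junb, an activity-induced transcription factor, fell by 2.80 (edgeR adjusted p = 0.00246). Of the glucocorticoid-induced genes 6 of 12 were called lower and 1 higher, with a median of -0.54, and Tsc22d3 fell by 1.38 (edgeR adjusted p = 0.00119). The part of these genes in the values of Per1 was not tested. Among the neighbours of the loop, 4 of 12 kinases, ligases and partners of PER and CRY were called lower and 1 higher on day 6, with Csnk1d, the kinase that phosphorylates PER proteins, at a log2 difference of -0.66 (edgeR adjusted p = 0.00335). Of the other clock transcription factors 2 of 12 were called lower and 1 higher, and Tef, a relative of Dbp, fell by 0.64 (edgeR adjusted p = 0.00125). Of the rhythmic output genes 4 of 10 were called higher and 1 lower, beside the all-gene shares of 18.2% and 15.2%.

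Between arms of the synapse fraction, each day has 1 library per arm, so single days are described without a test. Intervals are exact Clopper-Pearson 95% intervals that cover counting error only. On day 1 Per1 had the lowest L to C ratio of the members, with 1292 counts (96.9 CPM) in C and 808 counts (69.6 CPM) in L. Its log2 ratio was -0.52 (interval -0.65 to -0.39), and 0.687% of the 9316 genes compared had a lower ratio. The activity-induced genes lay below 0 in 8 of 9 cases on that day, with a median of -0.53, and the glucocorticoid-induced genes in 11 of 11, with a median of -0.34, against 51.7% of all genes. In the same pair all 5 endothelial markers lay above 0, with 4 past 1.5-fold, a median of 0.69 and sums of 193 CPM in C and 320.5 CPM in L. All 5 choroid plexus markers lay above 0 as well, with a median of 0.28 and none past 1.5-fold, and both pituitary markers compared were past 1.5-fold lower, with a median of -1.41. The part of these lists in the value of Per1 was not tested. No clock gene passed 1.5-fold on day 1 and 1.15% of genes did.

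On day 6 the Cry genes parted. Cry1 measured 14.0 CPM in C and 8.48 CPM in L (214 and 99 counts), a log2 ratio of -0.80 (interval -1.16 to -0.46). Cry2 measured 17.3 CPM in C and 31.5 CPM in L (264 and 368 counts), a log2 ratio of 0.78 (interval 0.55 to 1.02). These were 2 of the 8 members whose mean reached 10 CPM, and 20.3% of the 8079 genes compared passed 1.5-fold on that day. In the same pair all 5 astrocyte, all 5 oligodendrocyte and all 4 microglial markers compared lay below 0, with medians of -0.25, -0.20 and -0.41. Of the choroid plexus markers 4 of 5 lay below 0, and of the neuron markers 2 of 6. Both liver markers compared were past 1.5-fold lower. The part of these lists in the values of the Cry genes was not tested. On day 20 no member passed 1.5-fold and 0.86% of genes did. Dbp was the highest member, with 24.2 CPM in C and 30.5 CPM in L and a log2 ratio of 0.34 (interval 0.10 to 0.58). In that pair all 5 choroid plexus markers lay below 0, with a median of -0.34, and all 5 endothelial markers above 0, with a median of 0.18. Pituitary markers summed to 53.0 CPM in C and 571 CPM in L. The part of these lists in the value of Dbp was not tested.

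Across the 3 days, Dbp, Nr1d2 and Per3 were higher in L than in C on each day, Cry1 was lower on each, and the other 5 changed direction. Over the 9054 genes whose 6 synapse libraries averaged 10 CPM or more, 17.8% were higher in L on all 3 days and 10.5% lower on all 3. The counting intervals of Cry1 included 0 on day 1 (-0.48 to 0.14) and on day 20 (-0.50 to 0.18). With day as a block, Dbp differed by 0.28 ± 0.174 and Cry1 by -0.39 ± 0.255 (edgeR adjusted p = 0.91 for each). No member and none of the 13363 genes was called (0%), 227 genes had an unadjusted p under 0.05 in edgeR, and DESeq2 called 0, with 257 at an unadjusted p under 0.05. The log2 ratio of Dbp to Arntl was higher in L on all 3 days, at 0.31 and 0.58 (C and L, day 1), 0.20 and 0.95 (day 6) and 0.55 and 0.80 (day 20). In the homogenates the arms overlapped in this ratio.

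**Figure D4:**
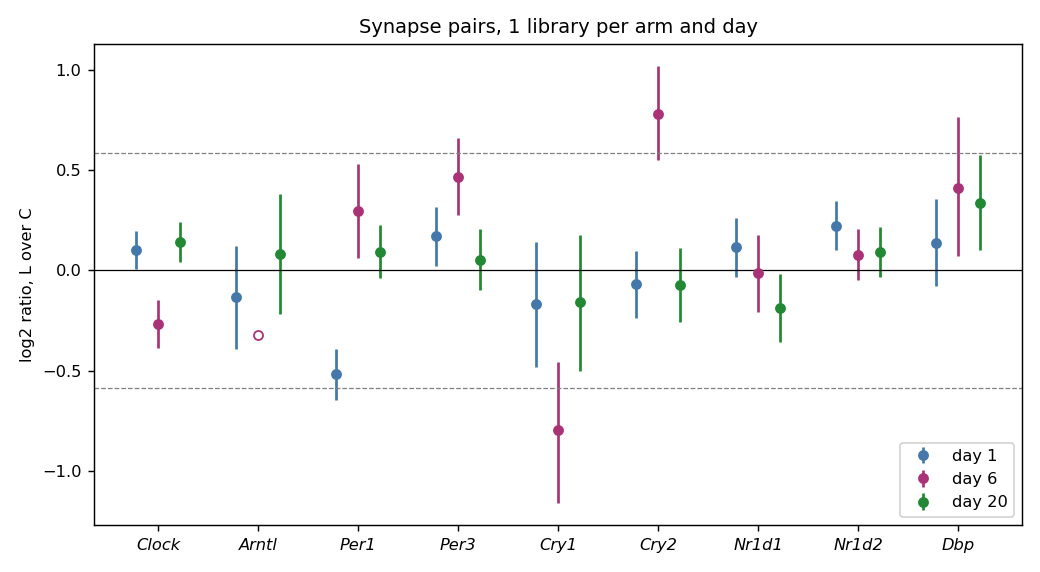
Log2 ratio of L over C in each synapse pair (1 library per arm and day), from TMM-scaled CPM, with exact 95% intervals for counting error; the dashed lines mark 1.5-fold and the open symbol is Arntl on day 6, under the minimum of 10 CPM. Cry1 (-0.80) and Cry2 (0.78) on day 6 lie outside the dashed lines.

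The difference between fractions in the arm effect was tested for day 6. The synapse side of this test is 1 library per arm, whose spread is taken from the homogenates, so an arm effect and a difference between 2 single libraries cannot be told apart. For Cry2, L minus C in the synapse libraries exceeded that in the homogenates by 0.79 ± 0.206 on the log2 scale (edgeR adjusted p = 0.0281). Cry2 was the only member of 9 called in the main fit, where 18.2% of the 14137 genes tested were called and 10.7% were called higher. Cry1 had a difference of -1.26 ± 0.387 and missed the threshold (edgeR adjusted p = 0.051), which it passed under relative log expression scaling (0.0484). Cry2 lost its call under DESeq2 (adjusted p = 0.0524) and without homogenate library 1 of arm C (edgeR adjusted p = 0.0714). With all 12 libraries, in which the spread between synapse libraries also counts, Cry2 differed by 0.24 (edgeR adjusted p = 0.843) and Cry1 by -0.80 (0.822). In that fit 0 genes were called and 713 had an unadjusted p under 0.05.

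The pattern of a member over all 12 libraries, after each table was centred, was compared with that of 9382 genes by Pearson's r of log2(CPM + 1). The genes most like Dbp were Fubp3 (r = 0.95), Tceb1 (0.93) and Msl3 (0.92), and those most like Arntl were Fam171a1, Ssu72 and Ptpn5 (0.96 each). Among the members, Dbp rose and fell with Nr1d2 (r = 0.79) and Per3 (0.71) and against Cry1 (-0.75) and Arntl (-0.65). With the remaining members its r was weaker, at 0.37 (Cry2), 0.23 (Nr1d1), -0.075 (Per1) and -0.16 (Clock). Arntl went against Per3 (-0.87) and Nr1d2 (-0.79), with weaker values for Nr1d1 (-0.44), Per1 (-0.13), Cry2 (-0.064), Clock (0.27) and Cry1 (0.38). These are descriptions over 12 libraries that share tables and scaling, with the highest values picked from many genes, and no p is attached.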

How the data were processed

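Counts per gene came from 4 tables, 1 for the synapse pair of each day and 1 for the homogenates. Per the labels' protocols, ribosomal RNA was removed from total RNA and strand-specific dUTP libraries were made. The authors used build mm10 with HISAT2 2.0.4, HTSeq 0.9.1, cutadapt 1.9.3 and edgeR, per the submitters' processing notes. Neither the annotation release nor the strand setting is given in the sources used here. What the authors deposited are raw counts of reads, and library totals of 9100192 to 15950350 limit the precision of low genes.

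Here, edgeR 4.0.16 in R 4.3.3 was used (filterByExpr, TMM, robust quasi-likelihood fit) over all genes of a comparison, with Benjamini-Hochberg adjustment and a threshold of 0.05. A fit of 4 groups served day 6, fits with arm or day as a term the others. Pair ratios used a prior count of 2 and genes whose mean was 10 CPM or more. Alternatives were DESeq2 1.42.0, limma-voom (limma 3.58.1), relative log expression scaling, library totals, no filter and leaving out each library. Fits were tested on simulated data. Exons and coordinates are those of GENCODE M21, matched for 17761 of 17986 genes. All 10 members are named, and of other lists at most the 3 genes with the smallest p. Members, lists and tests were chosen with earlier results of these data known. The result of 1 gene that the rule named is not reported here.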

Additional observations from a re-analysis of the deposited data

Results flagged for a closer look

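For Cry2 on day 6, L minus C was higher in the synapse fraction than in the homogenates by 0.79 on the log2 scale (edgeR adjusted p = 0.0281) in a fit that called 18.2% of all genes. The synapse side is 1 library per arm, with its spread taken from the homogenates. The adjusted p was 0.0524 under DESeq2, and with all 12 libraries the difference was 0.24 (edgeR adjusted p = 0.843), with 0 genes called.

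For Cry1 every L homogenate lay above every C homogenate, and L lay below C in all 3 synapse pairs. Neither comparison of arms passed its test (edgeR adjusted p = 0.559 in the homogenates and 0.91 in the synapse fraction with day as a block), and the counting intervals of days 1 and 20 included 0. The difference between fractions on day 6 was -1.26 on the log2 scale and missed the threshold (edgeR adjusted p = 0.051), with 1 synapse library per arm.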

How the results depend on the processing

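The members tested with the fewest counts were Cry1 and Arntl, with 76 to 377 counts in a library. The synapse fraction has 1 library per arm and day, so each value there rests on few libraries. Of the member values under all alternatives, 704 were counted as kept, 19 lost a call, 15 gained 1 and 60 changed sign, and the cause was not tested. A fitted value was kept if its direction and side of the threshold held, a synapse pair ratio if it stayed within its counting interval. Changes of sign in the pair ratios were thus not counted. Nr1d1 on day 6 had a log2 ratio of -0.0124, with 33.1 CPM in C and 34.7 CPM in L by library totals. No member that passed its test changed sign.

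Between arms of the homogenates 0 genes were called, 13 under DESeq2, and 0 to 3 without 1 library. With the library number as a replicate block 1 gene was called, no member, and 1639 had an unadjusted p under 0.05 in edgeR. The main fit did not take the numbers as a pairing, although same-numbered columns share a prefix in their headers. The deviations of same-numbered libraries correlated at 0.00928, 0.254 and 0.179, against -0.255 to 0.109 across numbers. L library 1, the one with liver transcripts, correlated better with C library 3 (0.0898) than with its own number. Between arms of the synapse fraction 0 genes were called, 1 with days 1 and 20 only, and 1 to 3 without 1 library. Day 6 against days 1 and 20 gave 4470 genes, and 3721 to 8613 without 1 library, the highest counts without the L (8613) or C (7764) library of day 6, which leaves 1 library for that day. Day 20 against day 1 gave 0, and 0 to 4 without 1 library. The difference of arm effects gave 2569 genes, 1390 to 2704 without 1 homogenate library, the lowest without C library 1, and 0 over all 12 libraries, an alternative chosen after the data were seen. It could not be fitted without a synapse library.

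Under library totals the log2 values changed sign for Nr1d2 between arms of the homogenates (-0.00088), for Nr1d1 (0.0099) and Clock (0.032) between arms of the synapse fraction, for Cry1 (-0.32) and Nr1d2 (-0.28) on day 6 against days 1 and 20, for Cry1 (-0.63) between fractions on day 6, for Nr1d1 (-0.025) and Arntl (-0.094) between fractions on days 1 and 20, and for Nr1d1 (0.12) and Per1 (0.12) in the difference of arm effects. Nr1d1 between fractions on day 6 turned to 0.0097 under relative log expression scaling and to 0.0096 under DESeq2, and its difference of arm effects to 0.0085 over all 12 libraries. With days 1 and 20 only, Clock (0.12) and Cry2 (-0.070) changed sign between arms of the synapse fraction.

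Without 1 library, values crossed 0 in these ranges. Between arms of the homogenates they were -0.18 to 0.067 (Nr1d1), -0.10 to 0.13 (Nr1d2), -0.028 to 0.30 (Per3), -0.0075 to 0.043 (Clock), -0.32 to 0.074 (Arntl) and -0.10 to 0.013 (Cry2). Between arms of the synapse fraction they were -0.12 to 0.029 (Nr1d1), -0.21 to 0.17 (Per1), -0.11 to 0.12 (Clock) and -0.070 to 0.33 (Cry2). On day 6 against days 1 and 20 Cry1 gave -0.18 to 0.51. On day 20 against day 1 they were -0.27 to 0.091 (Cry1), -0.29 to 0.39 (Per1), -0.028 to 0.21 (Per3), -0.054 to 0.19 (Clock), -0.17 to 0.051 (Dbp) and -0.35 to 0.073 (Cry2). Between fractions they were -0.49 to 0.77 (Cry1) and -0.072 to 0.050 (Nr1d1) on day 6, and -0.20 to 0.028 (Cry1) on days 1 and 20. The difference of arm effects gave -0.12 to 0.12 (Nr1d1), -0.11 to 0.090 (Per1) and -0.10 to 0.14 (Nr1d2).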
